A study of Homo sapiens with 6 samples.

Results

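The genes described here are 10 receptor tyrosine kinases, EGFR, ERBB2, ERBB3, ERBB4, MET, KIT, PDGFRA, PDGFRB, ALK and AXL, chosen by gene name. Every probe whose gene name in the array files was one of these was taken, so that 10 of the 30484 gene names in the files, 18 of the 41000 probes and 54 of the 43376 spots other than controls are described. RH36 is an established cell line of embryonal rhabdomyosarcoma (ERMS), a soft tissue tumor with features of immature skeletal muscle, and it is negative for the PAX3/FOXO1 translocation. All 6 arrays carry RNA of this single line, 3 from cells transfected with pre-miR-27a, a precursor molecule that yields miR-27a, and 3 from cells transfected with the negative pre-control, and the labels call the arrays of a group biological replicates. The labels give 10 nM of either precursor and, for the pre-miR-27a arrays alone, 48 h after transfection, while their protocol has overexpression tested 24 h after transfection and the study's methods give a different concentration. The pre-control arrays shared 1 slide and the pre-miR-27a arrays another, and the effects of slide and of transfection cannot be told apart in any difference below.

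Receptor tyrosine kinases are membrane proteins that bind a growth factor outside the cell, pair up, and phosphorylate each other and their docking proteins inside it. The docked adaptors pass the signal to the RAS and ERK and the PI3K and AKT pathways, and phosphatases, ubiquitin ligases and feedback inhibitors end it. In muscle, HGF and its receptor MET are known for the activation and migration of muscle precursor cells, and PDGFRA marks mesenchymal cells between the fibers. ERBB3 and ERBB4 bind neuregulins from the motor nerve, with ERBB2 as a partner.

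The transfected molecule is shown first, since every comparison below rests on it. The mature strand of the precursor is given with the mature strand of its paralog miR-27b and with the opposite strand of the miR-27a hairpin, as RefSeq lists them on GRCh38.p14, with the seed (bases 2 to 8, which pair with target mRNAs) in capitals.
hsa-miR-27a-3p: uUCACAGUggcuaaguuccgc
hsa-miR-27b-3p: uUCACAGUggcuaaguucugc
hsa-miR-27a-5p: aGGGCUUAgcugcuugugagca
The 2 strands named 3p share 1 seed, and the 5p strand has another. miR-27a-3p lies at chr19:13836447-13836467 on the minus strand. Sites for the seed in the receptors' mRNAs were not analysed here.

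Values are log2 intensities after quantile normalization, and a difference is pre-miR-27a minus pre-control on that scale. A spot is well above background when the scanner software flags it so, and a probe counts as called when its limma p, adjusted over all 36469 probes kept by the filter, is under 0.05. Of the 18 receptor probes, 16 were kept, and 1 of the 3 MET probes and the only ALK probe were removed because each was found on 4 of 6 arrays. A gene with several kept probes is given by its brightest probe. Levels of different probes are not compared with each other, because a probe's brightness also depends on its own sequence. In RNA of whole cultures, fewer cells carrying a transcript and less of it per cell cannot be told apart.

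None of the 9 receptors with a kept probe was called at its brightest probe (limma, adjusted p from 0.281 to 0.933), where 6.65% of the brightest probes of all 16612 genes were called. None of the 9 had an unadjusted p under 0.05 either. Over all 16 kept receptor probes the count was also 0, with 1 unadjusted p under 0.05, against 7.83% of all kept probes called and 24.8% with an unadjusted p under 0.05. The median difference of the 9 was −0.04 on the log2 scale, and that of all genes was also −0.04. The brightest probe's arrays of one group did not all lie above those of the other in any receptor, where 32.5% of all kept probes had such groups without overlap. Over the 16 kept probes there were 3 without overlap, 2 lower (dim probes of ERBB2 and PDGFRA) and 1 higher (a dim probe of ERBB4, from 5 arrays), beside 17.8% and 14.8% of all kept probes.

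Arrays of the 2 groups with the same replicate number deviated together across probes, and the arrays were therefore treated as pairs in a second fit. The sample titles number the replicates within each group and name no pairs, while the study's results name a paired SAM. The numbers are also slide positions, and the block cannot tell shared cultures from shared positions. With the replicate number as a block in limma, which compares each pre-miR-27a array with the pre-control array of its number, 2 of the 9 receptors were called, AXL lower and ERBB3 higher, beside 13.5% of all genes at their brightest probe (8.05% lower and 5.46% higher). Over the 16 kept probes 4 were called, AXL and a dim PDGFRA probe lower and 2 ERBB3 probes higher, beside 14.9% of all kept probes (7.62% lower and 7.24% higher). At their brightest probes 3 receptors were lower in all 3 pairs (ERBB2, PDGFRB and AXL) and 3 higher in all 3 (ERBB3, KIT and PDGFRA), as were 33.6% and 29.5% of probes with 3 pairs. With so few receptors, these calls are given as values of the genes named, with no statement about the group.

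**Figure D1:**
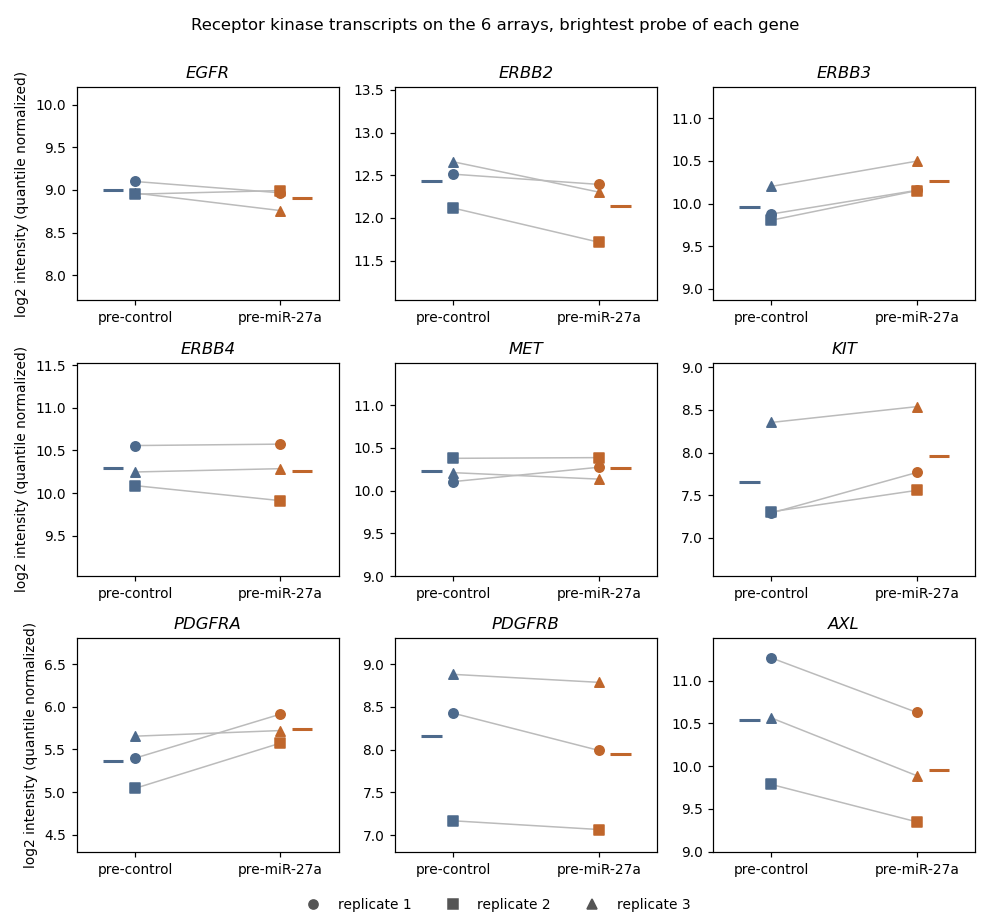
Log2 intensity (quantile normalized) of the brightest probe of 9 receptors on every array, with 1 panel per gene, all panels spanning the same width of the log2 scale around their own mean. Points are arrays, marker shapes replicate numbers, grey lines join arrays of the same number, and short bars are group means. AXL and PDGFRB spread widely over the replicate numbers in both groups, with the 3 lines of AXL all falling, while EGFR and MET stay within 0.34 and 0.28 log2 units over all 6 arrays.

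AXL, a receptor of the TAM family whose ligand is GAS6, had log2 intensities of 11.27, 9.79 and 10.56 on pre-control replicates 1, 2 and 3. On the pre-miR-27a arrays they were 10.63, 9.35 and 9.89. The groups overlap, since replicate 1 with pre-miR-27a lies above pre-control replicates 2 and 3, but each pre-miR-27a array lies below the pre-control array of its number, by 0.64, 0.44 and 0.68. The difference was −0.58 ± 0.48 (SE, n = 3 per group), with an adjusted p of 0.516, and it ranged from −0.95 (without pre-control replicate 2) to −0.22 (without pre-control replicate 1) when 1 array was left out. With the replicate block the SE was 0.07, the 95% interval ran from −0.80 to −0.37, the fold was 0.667 and the adjusted p was 0.0361. The single AXL probe covers chr19:46459235-46459294 on hg18, the build of all probe positions here. AXL kept this call with the block under 75th percentile scaling, under another background correction and in the authors' own normalized table (adjusted p 0.00100 to 0.0454), and lost it when any 1 replicate number was left out of both groups (adjusted p 0.119 to 0.143, differences −0.65 to −0.54). The last fits rest on fewer arrays, and the count called over all probes was not taken in them. Whether the loss is particular to AXL can therefore not be told.

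ERBB3, which has a weak kinase of its own and signals as the partner of ERBB2 and EGFR, gave 9.88, 9.81 and 10.20 in the pre-control and 10.16, 10.15 and 10.50 with pre-miR-27a at its brightest probe (chr12:54782427-54782486). Pre-control replicate 3 lies above 2 of the pre-miR-27a arrays, so the groups overlap, yet all 3 same-numbered differences were positive and close to each other, at 0.28, 0.35 and 0.30. The difference was 0.31 ± 0.15, a fold of 1.24, with an adjusted p of 0.293. With the block the SE was 0.05 and the adjusted p 0.0469. That call held with the block under normexp (adjusted p 0.0180) and on the deposited values (0.0338). It was lost with the block under 75th percentile scaling (adjusted p 0.0537, difference 0.34) and without any 1 replicate number (adjusted p 0.129 to 0.178, differences 0.28 to 0.32). As for AXL, it cannot be told whether the loss in the fits on fewer arrays is particular to ERBB3.

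The other ERBB3 probes are dim. The probe for the transcript U88360 (chr12:54773897-54773956) gave 4.54, 5.31 and 5.52 in the pre-control and 5.42, 5.80 and 6.07 with pre-miR-27a, and it was well above background on 5 of 6 arrays. Its difference was 0.64 ± 0.30 with an adjusted p of 0.263 and, with the block, 0.0430. The normexp background correction reduced that difference to 0.12. The probe for U88357 (chr12:54768980-54769039) gave 3.51, 4.66 and 3.91 against 4.40, 4.69 and 4.35, and only the last 3, those with pre-miR-27a, were well above background. No fold is given for it, because the bound on that fold was under 1. All 3 ERBB3 probes had a positive sign, and the 2 dim ones measure parts of the gene upstream of the brightest probe on the genome.

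**Figure D2:**
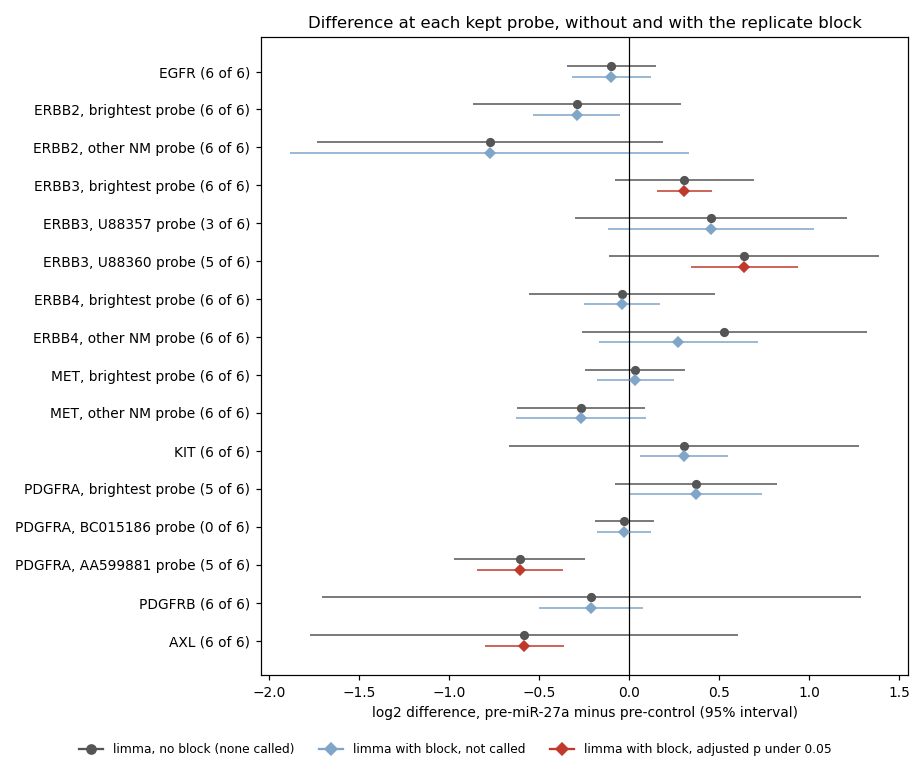
Log2 difference (pre-miR-27a minus pre-control) with its 95% interval for the 16 kept receptor probes, from limma without the block (grey circles) and with it (diamonds, red where the adjusted p is under 0.05). Numbers in parentheses count the arrays on which the probe was well above background. The block narrows AXL from an interval of −1.77 to 0.61 to one of −0.80 to −0.37, leaves EGFR and MET around 0, and shows PDGFRA probes on both sides of 0.

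EGFR, the receptor of EGF and TGFA, was measured on 10 spots per array by 1 probe (chr7:55242335-55242394). The log2 intensities were 9.10, 8.95 and 8.96 in the pre-control and 8.97, 8.99 and 8.76 with pre-miR-27a. Pre-miR-27a replicate 3 is the lowest array and pre-control replicate 1 the highest, with the other 4 close together between them. The difference of −0.10 ± 0.10 had an adjusted p of 0.600, and its 95% interval, as a fold, ran from 0.787 to 1.11. Among the brightest probes of the receptors, EGFR had the smallest SE without the block.

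ERBB2, the ERBB receptor without a known ligand of its own, gave 12.51, 12.12 and 12.66 in the pre-control and 12.39, 11.72 and 12.30 with pre-miR-27a at the probe with 10 spots (chr17:35138355-35138414). Replicate 2 was the lowest array of both groups, and each pre-miR-27a array lay below the pre-control array of its number. The difference was −0.29 ± 0.23, with adjusted p 0.506 and, with the block, 0.0977. A second, dim ERBB2 probe farther 5′ (chr17:35120176-35120235) gave 6.01, 7.31 and 6.01 against 5.94, 5.58 and 5.48, so that its groups did not overlap. Pre-control replicate 2 stood apart on it, and its difference of −0.78 ± 0.39 had an adjusted p of 0.288. Under the normexp background correction that difference became −0.40. The direction was the same at both ERBB2 probes, but replicate 2 of the pre-control was the lowest array of that group on one and the highest on the other.

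ERBB4, a neuregulin receptor, gave 10.56, 10.09 and 10.25 in the pre-control and 10.57, 9.91 and 10.29 with pre-miR-27a (chr2:211948760-211948819). The order of the replicate numbers was the same in both groups, and the groups overlapped almost fully. The difference was −0.04 ± 0.21, with an adjusted p of 0.933, the highest of the 9. The mean of both kept ERBB4 probes gave −0.64, where the value of pre-control replicate 1 is that of the brighter probe alone, since the spot of the dimmer one was not found. The other ERBB4 probe (chr2:211955253-211955312) gave 5.43 and 5.02 on 2 pre-control arrays, with replicate 1 missing because its spot was not found, against 6.26, 5.54 and 5.45. It had a positive difference of 0.53 ± 0.30 (adjusted p 0.367) from those 5 arrays.

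MET, the receptor of HGF, was also measured on 10 spots per array (chr7:116225526-116225585). Its values were 10.11, 10.38 and 10.21 in the pre-control and 10.27, 10.39 and 10.14 with pre-miR-27a. Replicate 2 was the highest array in both groups, and the groups overlapped. The difference of 0.03 ± 0.11 had an adjusted p of 0.892, and its interval as a fold ran from 0.844 to 1.24. A dim second probe (chr7:116223430-116223489) gave 5.75, 5.86 and 5.38 against 5.32, 5.46 and 5.41, with a difference of −0.27 ± 0.14 (adjusted p 0.316) and overlapping groups. The third MET probe, removed by the filter (chr7:116223309-116223368), was well above background on 1 pre-control array and all 3 pre-miR-27a arrays. The kept MET probes thus differed in sign, neither passed the test, and their mean gave −0.12. Under the normexp background correction the difference was −0.013 at the dim probe (adjusted p 0.942) and 0.027 at the brightest.

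KIT, the receptor of stem cell factor (KITLG), had 10 spots per array (chr4:55301268-55301327) and log2 intensities of 7.29, 7.31 and 8.35 in the pre-control and 7.77, 7.56 and 8.54 with pre-miR-27a. Replicate 3 was about 1 log2 unit above the other arrays in the pre-control and clearly highest with pre-miR-27a as well. Each pre-miR-27a array lay above the pre-control array of its number, by 0.47, 0.25 and 0.18. The difference was 0.30 ± 0.39 (adjusted p 0.692, or 0.0927 with the block), and it was 0.012 without pre-miR-27a replicate 3 and 0.66 without pre-control replicate 3. Of the KIT spots, 5 were not found, all of them on pre-miR-27a arrays.

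The probes repeated 10 times on each array separate spot error from differences between arrays, since the spots of an array share 1 labelled RNA. An array's value is the mean of its found spots, and its spot error is therefore the SD between spots divided by the square root of their number. For KIT the spots of an array varied with a coefficient of variation of 4.48% to 10.0%, and the SD between arrays was 17.0 times the median spot error in the pre-control and 14.5 times with pre-miR-27a. For ERBB2 the coefficient was 2.11% to 4.59%, and the ratios were 19.9 and 26.0. For EGFR the ratios were 2.81 and 4.38, and for MET 5.49 and 5.02. In all 4 genes the arrays of a group thus differed by more than the spot error, which leaves out labelling, hybridization and culture, and the ratios of EGFR and MET were lower than those of KIT and ERBB2.

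**Figure D3:**
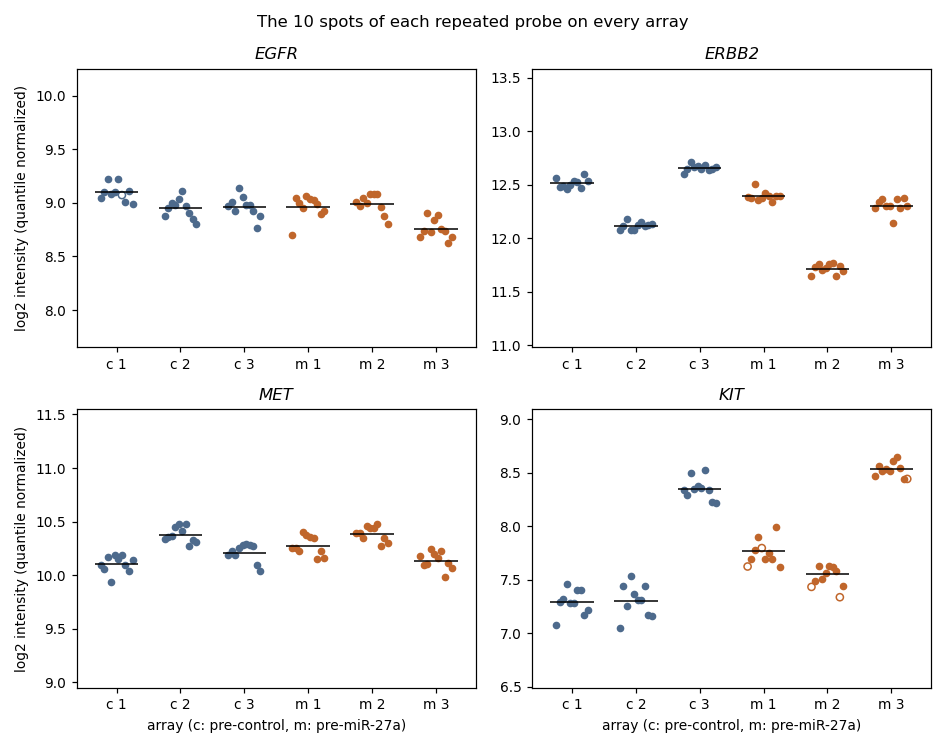
Log2 intensity (quantile normalized) of the 10 spots of the EGFR, ERBB2, MET and KIT probes on each array, with c for pre-control and m for pre-miR-27a followed by the replicate number. Open circles are spots not found and horizontal lines the mean of the found spots. The KIT spots of replicate 3 lie above those of replicates 1 and 2 in both groups, and replicate 2 has the lowest ERBB2 mean of each group.

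PDGFRA, the receptor of PDGF-A, PDGF-B and PDGF-C, was dim at all 3 of its probes. Its brightest (chr4:54858746-54858805) gave 5.40, 5.04 and 5.66 in the pre-control and 5.91, 5.57 and 5.72 with pre-miR-27a, and was well above background on 2 of 3 pre-control arrays and all pre-miR-27a arrays. The groups overlapped, and the difference was 0.37 ± 0.18 (adjusted p 0.281, or 0.132 with the block), which became 0.096 with the normexp background correction. The probe for the sequence tag AA599881 (chr4:54857313-54857372) went the other way, with 5.36, 5.56 and 5.13 against 4.88, 4.79 and 4.56. Its groups did not overlap, and its difference of −0.61 ± 0.15 had an adjusted p of 0.0665, or 0.0367 with the block. The files list that probe on the minus strand and the other PDGFRA probes on the plus strand, so it is uncertain which strand's transcript it measures. Around its spot the local background ranged from 65.5 to 78.0 intensity units in the pre-control and from 49.0 to 57.5 with pre-miR-27a, and with the normexp correction, which uses the local background, the difference became 0.11. The part of the background in this value was not tested further. The third probe, for BC015186 (chr4:54825210-54825269), did not reach that flag on any array.

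PDGFRB, the receptor of PDGF-B and PDGF-D, varied most over the replicate numbers (chr5:149473657-149473716). Its log2 intensities were 8.43, 7.17 and 8.88 in the pre-control and 7.99, 7.06 and 8.79 with pre-miR-27a. Replicate 2 was lowest and replicate 3 highest in both groups, and each pre-miR-27a array lay below the pre-control array of its number. The difference was −0.21 ± 0.60 (adjusted p 0.874, or 0.222 with the block).

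ALK, the receptor of the ALKAL proteins that also binds pleiotrophin and midkine in some assays, stayed below the flag for well above background on all 6 arrays (chr2:29269445-29269504). Its processed intensities were 14.5, 6.88 and 5.55 in the pre-control and 2.96, 5.48 and 3.97 with pre-miR-27a. The ALK probe was found on 4 arrays but well above background on none, so no fold is given.

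The spread over replicate numbers was itself a feature of 3 receptors. Averaged over both groups, the 3 numbers ranged over 1.72 log2 units for PDGFRB, 1.38 for AXL and 1.01 for KIT. Over the 31717 probes with a value on every array the median of that range was 0.28 and the 95th percentile 1.07, and 1.27%, 2.62% and 5.69% of probes had a wider range than PDGFRB, AXL and KIT. EGFR and MET, at 0.17 and 0.21, were below the median. The order of the numbers was not shared, with replicate 1 highest for AXL and replicate 3 for PDGFRB and KIT. In 6 of the 9 receptors the same replicate number was highest in both groups, as in 58.9% of all probes.

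Ligands of these receptors were described by a list of 21 genes, of which 17 had a kept probe, and none was called, beside 6.65% of all genes at their brightest probe. With the block TGFA and PDGFA passed the threshold, beside 13.5% of all genes. TGFA, a ligand of EGFR (adjusted p 0.0425), was well above background on no pre-control array and on 2 of 3 pre-miR-27a arrays, and no fold is given for it because the bound on that fold was under 1. Among the ERBB ligands HBEGF, NRG1 and NRG2 were well above background on all 6 arrays, and EGF was so on none. NRG1, which binds ERBB3 and ERBB4, gave 9.32, 9.46 and 9.25 in the pre-control and 9.17, 9.11 and 8.96 with pre-miR-27a, with no overlap between the groups, a difference of −0.26 ± 0.10 and an adjusted p of 0.181. Of all kept probes, 17.8% were lower with pre-miR-27a without overlap. The other kept NRG1 probes ranged from −0.42 to 0.14 (lowest adjusted p 0.0639). HBEGF differed by −0.29 ± 0.27 and NRG2 by 0.07 ± 0.15, with adjusted p of 0.569 and 0.838. EREG, BTC and EPGN had no kept probe, and no probe matched NRG3.

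All 10 genes listed as ligands of MET, KIT, the PDGF receptors, ALK and AXL were well above background on every array at their brightest probe. For ALK the list held PTN and MDK but not the ALKAL genes, and it included PROS1, a ligand of AXL relatives. PDGFA, a ligand of PDGFRA, gave 11.67, 11.56 and 11.38 in the pre-control and 11.19, 10.89 and 10.98 with pre-miR-27a. Every pre-miR-27a array was below every pre-control array, as in 17.8% of all kept probes. The difference of −0.52 ± 0.12, a fold of 0.699, had an adjusted p of 0.0631, which was 0.0407 with the block. Without the block it was under 0.05 with normexp (0.0330), the filter on well above background (0.0418) and a variance trend with robust limma (0.0442). It was over 0.05 under 75th percentile scaling (0.0549), with no filter (0.0665), on the deposited values (0.0543) and without any 1 array (0.0851 to 0.176). MDK, or midkine, gave 16.26, 16.41 and 16.34 against 16.05, 16.21 and 16.08, also without overlap (−0.22 ± 0.09, adjusted p 0.190).

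The other ligands had overlapping groups at their brightest probes. HGF gave 13.25, 13.11 and 13.29 in the pre-control and 13.28, 12.85 and 13.23 with pre-miR-27a (difference −0.10 ± 0.14, adjusted p 0.727). Its other kept probes went the other way, with differences of 0.14 to 0.31 (lowest adjusted p 0.155). GAS6, the ligand of AXL, gave 10.63, 10.22 and 10.13 against 10.73, 10.13 and 10.08 (−0.01 ± 0.23, adjusted p 0.978). The groups overlapped at the brightest probes of HGF and GAS6, and GAS6 was lower in 2 of 3 pairs where AXL was lower in all 3. PROS1, or protein S, a ligand of the AXL relatives TYRO3 and MERTK, differed by 0.23 ± 0.23 (adjusted p 0.599). For KITLG, PDGFB, PDGFC, PDGFD and PTN the differences were 0.03, −0.32, 0.15, 0.05 and 0.27, with adjusted p from 0.329 to 0.954. The other kept KITLG probes ranged from −0.34 to 0.74 (lowest adjusted p 0.0707).

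Of 9 closely related receptors, 7 were well above background on all arrays and 1 was called, CSF1R. No array of the 5 with a value was well above background, so no difference is given. Its call (lower, adjusted p 0.0408) was lost in all alternatives that gave it a value but the replicate block, and its sign turned under normexp. Among those alternatives, the fits without 1 array called no probe at all, apart from the fit lacking pre-control replicate 1. The loss in fits with no call is not read as particular to CSF1R. The AXL relatives TYRO3 and MERTK differed by −0.21 and −0.05 (adjusted p 0.399 and 0.854). Of 19 adaptors and signal carriers with a kept probe none was called at its brightest probe, with a median difference of −0.03, and 1 of the other STAT3 probes was called higher (0.80, adjusted p 0.0378). The remaining kept STAT3 probe went the other way, with a difference of −0.20. With the block PIK3R1, the regulatory subunit of PI3K, was higher at a fold of 2.29 (adjusted p 0.0334), as were PLCG1 at 1.32, PIK3CB at 1.42 and STAT3 at 1.57. These 4 are named after their values were seen, and the block calls beside the background of 13.5% are given without a statement on the list.

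PTPN1, a phosphatase that acts on several receptor kinases, was the 1 gene called at its brightest probe among 17 negative regulators with a kept probe. It gave 12.37, 12.05 and 12.24 in the pre-control and 12.80, 12.78 and 12.77 with pre-miR-27a. Every pre-miR-27a array exceeded every pre-control array, and the difference was 0.56 ± 0.10, a fold of 1.48, with an adjusted p of 0.0353. Leaving out any 1 of the 6 arrays ended the call (adjusted p 0.0508 to 0.119, differences 0.47 to 0.64). Except where pre-control replicate 1 was the array left out, no gene had any probe called in these fits. The loss there is therefore not read as particular to PTPN1. In the fit lacking pre-control replicate 1, 1195 probes passed the threshold, and PTPN1 narrowly missed it (difference 0.64, adjusted p 0.0508). HGS, which sorts receptors for degradation, had another probe called lower (−0.65, adjusted p 0.0210), while its brightest probe differed by 0.06. DUSP6, a phosphatase of ERK, was named after its values were seen, at 0.37 with adjusted p 0.0936 and, with the block, 0.0463. None of the 8 ligand-releasing or ligand-activating proteases and their inhibitors with a kept probe was called. Over these lists together, 2 of 70 genes were called, beside 6.65% of all genes at their brightest probe.

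**Figure D4:**
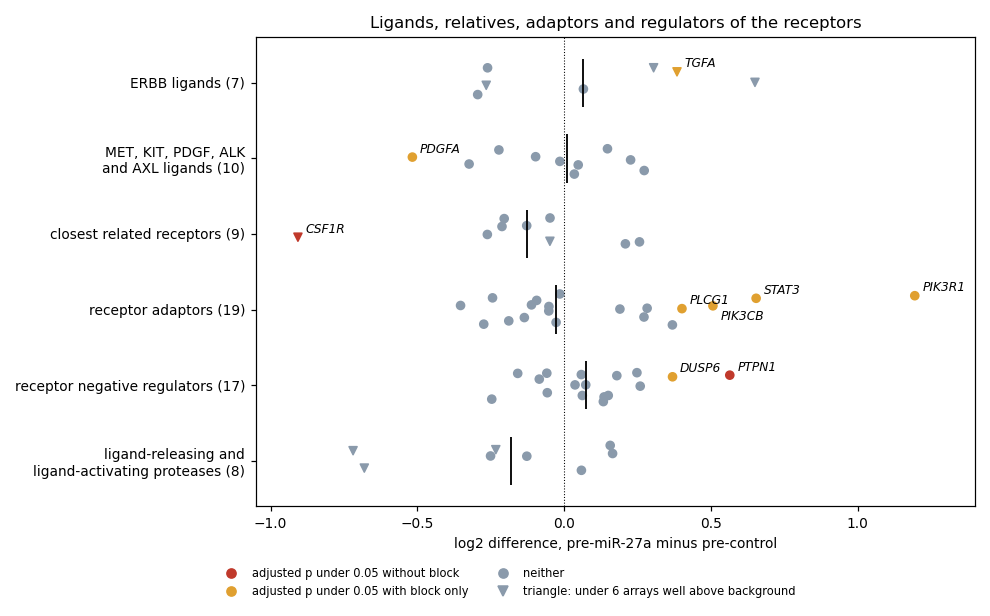
Log2 difference (pre-miR-27a minus pre-control) of the brightest probe of each of 70 list genes, by list, with the number of genes in parentheses, the list's median as a vertical bar, and vertical scatter added only to separate points. Red points were called by limma without the block, orange points only with it, and triangles were well above background on fewer than 6 arrays. The 2 red points are PTPN1 at 0.56 and CSF1R, not well above background on any array, and PIK3R1 at 1.19 lies farthest to the right.

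The genes whose levels followed EGFR, MET and PDGFRA most closely over the 6 arrays are given as a description, chosen from the 12786 genes compared with EGFR and MET and a like number for PDGFRA, on arrays that share slides and hybridizations. For EGFR they were KCNK2, BRSK1 and PHKB (Pearson r 0.987, 0.986 and 0.977). For MET they were ENSA, CDC42EP3 and MRPL13 (0.993, 0.990 and 0.990), and for PDGFRA at its dim brightest probe ADAMTS5, DDX42 and PHLDA1 (0.997, 0.996 and 0.992).

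The line was checked against muscle markers, and 10 of the 12 listed, MYOD1, MYOG and DES among them, had a kept probe and were well above background on all 6 arrays. None was called at its brightest probe, a dimmer CHRNA1 probe was called higher (0.95, adjusted p 0.0216), and with the block MYOD1, MYOG and CDH15 were lower, at differences of −0.45, −0.95 and −0.35, each in all 3 pairs, beside 8.05% of all genes called lower with the block and 33.6% of probes lower in all 3 pairs. The summed intensity of the 10 ranged from 371065 to 444106 on the pre-control and from 330490 to 400179 on the pre-miR-27a arrays. Their part in the receptor values was not tested. The epithelial genes EPCAM, CDH1 and GRHL2, the leukocyte gene PTPRC and the endothelial gene PECAM1 had no array well above background. Other genes of these lists were well above background on all 6 arrays. They were 2 of 6 measured epithelial, 3 of 6 haematopoietic, 3 of 5 endothelial and 3 of 6 melanocyte, mast cell and interstitial genes. Beside 6.65% of all genes, of 6 measured epithelial genes 1 was called (KRT14, lower, with its other probe at 1.14 and an adjusted p of 0.379), of 6 haematopoietic genes 2 (CD3E and CD14, both lower), and of 5 endothelial and 6 melanocyte, mast cell and interstitial genes none. The percent of spots well above background was 69.9% to 73.9% on the pre-control and 74.1% to 78.0% on the pre-miR-27a arrays, and the median local background lay between 74.5 and 76.0 intensity units on the former and between 52.5 and 53.0 on the latter.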

How the data were processed

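RNA of 6 RH36 cultures was labelled with Cy3 and hybridized to 1-channel Agilent arrays. The authors deposited the Feature Extraction 10.5.1.1 output of each array, whose processed intensity is background-corrected within the array, with flags per spot and no normalization across arrays. A log2 table, which the values show to be quantile normalized, was deposited as well and served as an alternative. After removal of control spots, log2 processed intensities were quantile normalized, spots without the found flag were treated as missing, the spots of each probe were averaged, and a probe with over 1 missing array was dropped. Groups were compared with limma 3.58.1 (R 4.3.3), adjusting p by Benjamini-Hochberg over the 36469 probes left, at a threshold of 0.05. The fits were also run on simulated arrays with known differences, whose outcome is not given here. Those arrays were drawn independently, without a shared replicate effect, so that run did not test the block fit on paired arrays. An exact permutation test of 3 against 3 arrays cannot give a two-sided p under 0.1 and makes no calls here. Figures were drawn with matplotlib 3.10.9.

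Replicate numbers, which the labels give, are also slide positions. Deviations from the group mean correlated at 0.396, 0.456 and 0.409 between arrays of the same number, over 31717 probes, and at −0.27 to −0.12 between different numbers, and since all 3 exceeded 0.1 the arrays were treated as paired. Values are from the unblocked fit unless the block is named.

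The receptors and the lists of ligands, relatives, adaptors, regulators, proteases and cell type markers were chosen with earlier results of these data known. Named were every receptor with all its probes, list genes called at the brightest probe, ligands well above background on all 6 arrays, and the 3 genes most correlated with EGFR, MET and PDGFRA. Current symbols came from RefSeq (GRCh38.p14) for 25260 of the kept probes. Probe positions are those of the files (hg18). Unused per-sample columns numbered 0. The few arrays and the background limit the precision of intensities, and dim probes give only bounds. The alternatives tried are named in the closing section.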

Additional observations from a re-analysis of the deposited data

How the results depend on the processing

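The alternatives were scaling to the 75th percentile, normexp background correction (offset 50), dropping the filter, keeping only probes well above background on all arrays of at least 1 group, the replicate block, the deposited log2 table, a variance trend with robust limma, unpaired SAM, the mean of a gene's probes, and leaving out each array. The study's results name a paired SAM, which was not run here. The count over all probes was 2856, became 5421 with the replicate block, was 9 and 1329 with SAM at 1.9% and 5%, and ranged from 0 to 1195 without 1 array, with 0 by limma in all cases but pre-control replicate 1 (7395 to 8730 probes had an unadjusted p under 0.05 in the 6 cases). The 75th percentile scaling called 1275 higher and 1981 lower against 1440 and 1416. At the brightest probes, the count of receptors called stayed 0 except with the replicate block, where it was 2, and, in combinations added after seeing the data, 1 with the block and 75th percentile scaling, 4 with the block and normexp (AXL, ERBB2, ERBB3 and KIT) and 2 with the block on the deposited values. Over every receptor probe the count was 1 under 75th percentile scaling and under the filter on probes well above background (the AA599881 probe of PDGFRA both times), 4 with the replicate block, and 2, 6 and 5 with the block and, in turn, 75th percentile scaling, normexp and the deposited values. Over the lists it was 2, and 6 with normexp, 1 with no filter, 4 with the filter on well above background and with the variance trend, 9 with the replicate block, and 0 without any 1 array.

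Directions turned in the following. Under 75th percentile scaling GAS6 was 0.0065. Under normexp the AA599881 probe of PDGFRA was 0.11, with the block as well, PDGFD −0.034 and CSF1R 0.046. With the mean of a gene's probes MET was −0.12 and PDGFRA −0.088. With the block and without replicate 1 of both groups MET was −0.034, and without replicate 2 ERBB4 was 0.027. Without 1 array the differences ranged from −0.20 to 0.13 for ERBB4, −0.029 to 0.11 for MET, −0.71 to 0.23 for PDGFRB, −0.037 to 0.19 for NRG2, −0.18 to 0.037 for HGF, −0.22 to 0.19 for KITLG, −0.17 to 0.31 for PDGFD and −0.22 to 0.14 for GAS6. The cause of these changes was not tested, apart from the fewer arrays of the last. EGFR, ERBB2, ERBB3, KIT and AXL kept their direction in all 20 alternatives each, but without 1 array they ranged from −0.14 to −0.025 (EGFR), −0.44 to −0.081 (ERBB2), 0.19 to 0.43 (ERBB3), 0.012 to 0.66 (KIT) and −0.95 to −0.22 (AXL), the values nearest 0 being those without pre-miR-27a replicate 3 (EGFR, ERBB3 and KIT), pre-miR-27a replicate 2 (ERBB2) and pre-control replicate 1 (AXL). With the mean of a gene's probes ERBB2 was −0.53 and ERBB4 −0.64. The limits are 3 arrays per group on 1 slide each, dim probes for PDGFRA, and ALK not well above background on any array.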
